A study of Mus musculus with 12 samples.

Results

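The genes described here encode components of NF-kB and Toll-like receptor signalling. The list of 42 was set by gene name, with earlier results of these data known. It runs from the receptor accessory proteins and adaptors through the kinases to the transcription factors and their inhibitors. The platform's gene table lists 36 of the 42 alone on a probe set, and these 36 of 30464 named genes are reported. Irak1 was listed on a probe set together with 2 microRNA genes and was not used, and Irak4, Traf3, Ripk1, Ripk2 and Chuk were not named in that table. All 36 exceeded the median of all probe sets on all 12 arrays, so the filter on low values (above that median on at least 3 arrays), which 18119 genes passed, removed none of them.

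The samples were RAW264.7 cells, mouse cells that resemble macrophages, held for 24 h in 1 of 4 media and measured on 12 Affymetrix arrays, 3 for each medium. KO medium (replicates 1, 2 and 3) was conditioned by JMJD6-KO PyMT-41C cells. SCR medium with CSH (replicates 1, 2 and 4) was conditioned by SCR PyMT-41C cells and also held CSH, which the labels give as a blocker of the ANXA-1 receptor. SCR medium (replicates 1, 3 and 4) was conditioned by SCR PyMT-41C cells alone, and normal medium (replicates 2, 3 and 4) was the shared baseline. The conditioned share of the medium was 50%. JMJD6 was altered in the cells that made the medium and not in the cells measured. The labels name no group with CSH in normal medium and do not tell whether each replicate was its own culture. The p-values therefore weigh only the spread among these arrays, and that spread may be technical. Values below are RMA signals on the log2 scale, in the order of the replicate numbers above, and a difference of 1 is a 2-fold difference.

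The receptors of the interleukin-1 family and most Toll-like receptors pass their signal to the adaptor MyD88, and some Toll-like receptors pass it to the adaptor TRIF. IRAK kinases and the ubiquitin ligase TRAF6 then activate the kinase TAK1 and the IKK complex. IKK marks the inhibitors of NF-kB for destruction, and the freed NF-kB dimers enter the nucleus, where in macrophages they switch on cytokine genes and the genes of several of their own inhibitors.

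Macrophage markers bore out the cell label: 11 of 12 exceeded the array median on all arrays, and Mertk did so on none. Among 10 epithelial markers 7 (Epcam and Cdh1 among them) were above the median on no array, and Krt14 was above it on all. The mean signal of that list was 4.98 on each KO array, 4.97 to 4.99 with CSH, 4.93 to 5.03 in SCR medium and 4.94 to 4.96 in normal medium. In the neutrophil list 1 of 5 tested genes, S100a8, was higher in SCR than in normal medium (2.22) and stood at 1.02 in KO against SCR medium (adjusted p = 0.0938), while of its 8 genes Ly6g, S100a9, Camp and Cxcr2 were above the median on all arrays and Mpo, Elane and Ltf on none. The mean signal of that list was 5.88 to 5.94 in KO medium, 5.77 to 5.87 with CSH, 5.75 to 5.85 in SCR medium and 5.49 to 5.57 in normal medium. These means include S100a8, which averaged 8.30, 7.54, 7.28 and 5.06 in that order. The last value was under 5.4, the lowest median of any array. S100a8 thus needed arrays of conditioned medium to pass the filter on low values. That filter favoured a rise of this gene, so its call is not an independent sign of a change in the list. The other 4 tested genes of the list passed in no comparison with normal medium. The part of these markers in the results below was not tested. The macrophage list averaged 12.68 to 12.77 in KO medium, 12.61 to 12.83 with CSH, 12.61 to 12.75 in SCR medium and 12.83 to 12.92 in normal medium. Of its 11 tested genes 3 were higher and 5 lower in SCR medium, beside 19.3% and 15.8% of all genes. Csf1r (-1.79) and Adgre1 (-1.45) were among the lower ones. Itgam went the other way, averaging 15.00 in SCR and 14.03 in normal medium, as did Cd14, at 13.44 and 12.83.

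Against normal medium, 13 of the 36 genes were higher in SCR medium and 6 were lower, with limma and an adjusted p below 0.05 over all 18119 genes. Of all tested genes 19.3% were higher and 15.8% lower by the same rule, so 52.8% of the members changed where 35.2% of all genes did. The 36 were chosen with earlier results of these data known and exceeded the median on all 12 arrays, where the filter asked for 3. The difference between these shares is therefore not a test of the list. For 21 of 36 the SCR and normal arrays did not overlap (background 43.3%). The members were spread in both directions, from -2.02 for Ly86 to 1.01 for Nfkbib, with a median of 0.03 beside 0.02 for all genes. Most changes were small: 6 of the 36 passed and reached a 1.5-fold difference (16.7%), beside 9.25% of all genes. In KO medium 20 changed against normal medium (background 39.1%), 14 of them higher and 6 lower (background 21.4% and 17.6%), and 6 reached 1.5-fold (background 11.5%). In SCR medium with CSH 23 changed (background 35.8%), 16 higher and 7 lower (background 20.9% and 14.9%), with 6 at 1.5-fold (background 8.99%). Arrays did not overlap with those of normal medium for 22 members in KO medium (background 49.8%) and 24 with CSH (background 46.8%). A test of any difference among the 4 media called 20 of 36, and 36% of all genes. The 3 comparisons share the normal-medium arrays, so their values are given side by side and not as repeats of each other. In a bulk sample less RNA per cell and fewer cells that express a gene cannot be told apart.

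**Figure D1:**
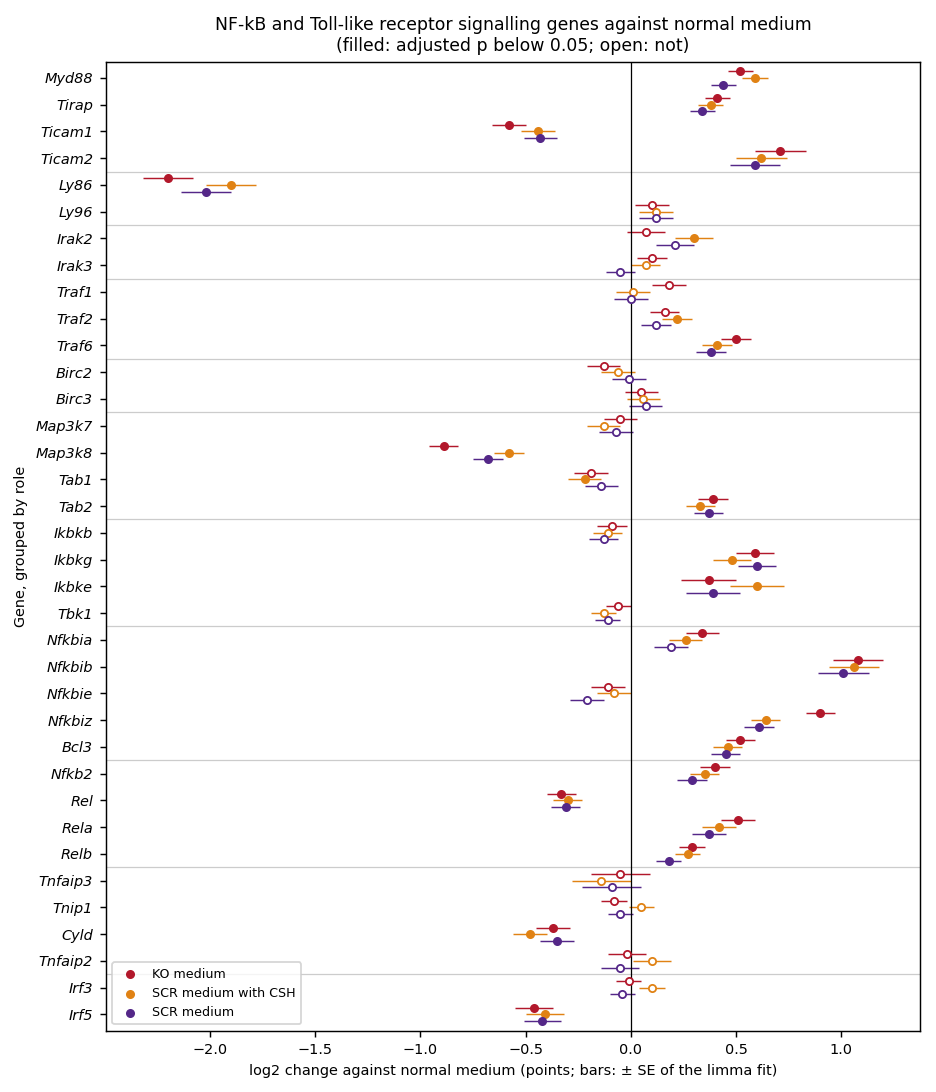
Log2 change of each of the 36 genes against normal medium (x axis) in KO medium, SCR medium with CSH and SCR medium, in rows grouped by role. Points are limma estimates from 3 arrays per medium, bars are ± SE, and filled points have an adjusted p below 0.05; Ly86 stands at -2.20, -1.90 and -2.02 in that order, and Nfkbib at 1.08, 1.06 and 1.01.

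All 4 adaptor genes changed in conditioned medium, beside 35.2% of all genes called in SCR medium, and they did not change the same way. Myd88, the adaptor shared by most Toll-like receptors, read 10.41, 10.31 and 10.42 in KO medium, 10.46, 10.48 and 10.41 in SCR medium with CSH, 10.40, 10.20 and 10.31 in SCR medium and 9.81, 9.91 and 9.87 in normal medium. Every conditioned-medium array lay above every normal-medium array. The log2 change was 0.52 in KO medium (SE 0.06, adjusted p = 3.07e-05), 0.59 with CSH (SE 0.06, adjusted p = 1.61e-05) and 0.44 in SCR medium (SE 0.06, adjusted p = 1.50e-04). Tirap, which links MyD88 to TLR2 and TLR4, was higher by 0.41 in KO medium, 0.38 with CSH and 0.34 in SCR medium, again with no overlap of the arrays. Ticam2, which encodes the sorting adaptor TRAM that links TRIF to TLR4, read 9.82, 9.85 and 9.57 in KO medium, 9.66, 9.59 and 9.70 in SCR medium with CSH, 9.75, 9.33 and 9.78 in SCR medium and 8.95, 9.20 and 8.95 in normal medium. SCR replicate 3 was the lowest conditioned-medium array and still lay above the highest normal one, at 9.20. The changes of Ticam2 were 0.71 in KO medium, 0.62 with CSH and 0.59 in SCR medium, with adjusted p = 0.00173 in SCR medium.

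Ticam1, which encodes TRIF itself, the adaptor of TLR3 and of the second branch of TLR4, was the adaptor gene that fell. It read 7.73, 7.62 and 7.54 in KO medium, 7.79, 7.87 and 7.65 in SCR medium with CSH, 7.72, 7.71 and 7.91 in SCR medium and 8.24, 8.23 and 8.17 in normal medium. The lowest normal-medium array, at 8.17, was above all 9 conditioned ones. Its log2 change was -0.58 in KO medium (SE 0.08, adjusted p = 4.55e-05), -0.44 with CSH (SE 0.08, adjusted p = 5.36e-04) and -0.43 in SCR medium (SE 0.08, adjusted p = 6.15e-04). The genes of TRIF and of the adaptor that brings TRIF to TLR4 moved in opposite directions.

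Ly86 had the largest change of the 36 in each of the 3 comparisons with normal medium. It encodes MD-1, the secreted partner of the receptor CD180, and lies at GRCm38.p6 chr13:37345345-37419036. Its signal was 10.68, 10.85 and 10.70 in KO medium, 11.06, 11.32 and 10.75 in SCR medium with CSH, 10.96, 10.94 and 10.85 in SCR medium and 13.09, 12.78 and 12.95 in normal medium. The normal-medium arrays stood well apart from all others, and the CSH arrays were the most spread of the conditioned groups. In SCR medium the log2 change was -2.02 (SE 0.12, adjusted p = 1.39e-07), a 4.07-fold lower signal, beside -2.20 in KO medium and -1.90 with CSH. Cd180, the receptor gene, averaged 10.33 ± 0.06 in SCR medium and 12.08 ± 0.13 in normal medium (SD, n = 3 each), a log2 change of -1.75 (SE 0.11, adjusted p = 1.51e-07). Ly96, which encodes MD-2, the partner of TLR4 that binds lipopolysaccharide, did not pass. It averaged 9.35 ± 0.14 in SCR medium and 9.22 ± 0.12 in normal medium (SD, n = 3 each), a difference of 0.12 with a 95% interval of -0.06 to 0.31 (adjusted p = 0.301).

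Downstream of the adaptors, Traf6 rose in each conditioned medium. TRAF6 is the ubiquitin ligase that carries the MyD88 signal to TAK1. The Traf6 arrays read 9.75, 9.88 and 9.78 in KO medium, 9.80, 9.70 and 9.64 in SCR medium with CSH, 9.76, 9.53 and 9.75 in SCR medium and 9.28, 9.33 and 9.29 in normal medium. All conditioned arrays were above 9.33, the highest normal one, and SCR replicate 3 was again the lowest of the 9. Its change was 0.50 in KO medium (SE 0.07, adjusted p = 1.07e-04), 0.41 with CSH (SE 0.07, adjusted p = 6.49e-04) and 0.38 in SCR medium (SE 0.07, adjusted p = 0.00117). Traf1 and Traf2, which act at tumour necrosis factor receptors, differed by 0.00 and 0.12 in SCR medium and did not pass (adjusted p = 0.979 and 0.229). Traf2 passed with CSH at 0.22 (adjusted p = 0.0301), a call that was lost when any of 4 arrays was left out (normal replicates 2 and 4, CSH replicates 2 and 4), with adjusted p up to 0.129.

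Of the measured IRAK and IAP genes, Irak2 passed in 1 comparison with normal medium and the others in none. Irak2, a kinase of the MyD88 complex, differed by 0.07 in KO medium, 0.30 with CSH and 0.21 in SCR medium. It passed in the CSH comparison (adjusted p = 0.0203), but not without normal replicate 4 or CSH replicate 1 or 2 (adjusted p up to 0.0825). Irak3, which encodes the inhibitory IRAK-M, differed by -0.05 between SCR and normal medium (95% interval -0.20 to 0.10). Birc2 and Birc3, which encode the ubiquitin ligases cIAP1 and cIAP2 of tumour necrosis factor signalling, differed by -0.01 (-0.18 to 0.16) and 0.07 (-0.12 to 0.25). None of the last 3 passed in any comparison.

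Among the kinases that act next, Map3k8 fell. It encodes TPL2, which activates the ERK branch downstream of Toll-like receptors. Its signal was 7.24, 7.24 and 7.06 in KO medium, 7.51, 7.54 and 7.42 in SCR medium with CSH, 7.47, 7.34 and 7.37 in SCR medium and 8.19, 8.07 and 7.95 in normal medium. The groups of conditioned arrays lay below 7.95, the lowest normal array, and the KO arrays were the lowest of all. The log2 change was -0.89 in KO medium (SE 0.07, adjusted p = 1.06e-06), -0.58 with CSH (SE 0.07, adjusted p = 5.76e-05) and -0.68 in SCR medium (SE 0.07, adjusted p = 1.56e-05). Map3k7, the gene of TAK1, differed by -0.07 in SCR medium (95% interval -0.25 to 0.12, adjusted p = 0.61). Of the genes of its binding partners, Tab2, whose product ties TAK1 to ubiquitin chains, rose by 0.39 in KO medium, 0.33 with CSH and 0.37 in SCR medium (adjusted p = 0.00108 in SCR medium). Tab1 stood at -0.19 in KO medium, -0.22 with CSH and -0.14 in SCR medium and passed with CSH (adjusted p = 0.0343). That call was lost without normal replicate 2 or 4 or CSH replicate 4 (up to 0.156), and the KO value passed without normal replicate 3 (adjusted p = 0.0313).

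Of the IKK genes, Ikbkg and Ikbke rose in SCR medium and Ikbkb and Tbk1 did not pass. Ikbkg encodes NEMO, the regulatory subunit of the IKK complex. Its arrays read 8.49, 8.34 and 8.54 in KO medium, 8.29, 8.24 and 8.51 in SCR medium with CSH, 8.60, 8.32 and 8.47 in SCR medium and 7.84, 7.98 and 7.78 in normal medium. No conditioned array came down to 7.98, the highest normal value. The change was 0.59 in KO medium (SE 0.09, adjusted p = 2.14e-04), 0.48 with CSH (SE 0.09, adjusted p = 0.00129) and 0.60 in SCR medium (SE 0.09, adjusted p = 2.51e-04). The span of Ikbkg overlaps other genes on chromosome X, among them Fam3a, which was also higher in SCR medium, by 0.25 (adjusted p = 0.0118), and signal from overlapping genes was not told apart.

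Ikbke, the gene of the kinase IKK-epsilon, read 9.45, 9.60 and 9.33 in KO medium, 9.52, 10.04 and 9.51 in SCR medium with CSH, 9.42, 9.42 and 9.59 in SCR medium and 9.04, 9.22 and 9.01 in normal medium. CSH replicate 2 was the highest array by a clear margin. The change was 0.39 in SCR medium (SE 0.13, adjusted p = 0.0317), beside 0.37 in KO medium (adjusted p = 0.0354) and 0.60 with CSH (adjusted p = 0.00255). The SCR call failed when SCR replicate 1 or 4 or normal replicate 2 or 4 was dropped (adjusted p up to 0.111), and the KO call failed without normal replicate 2 or 4 or KO replicate 1 or 2 (up to 0.129). Ikbkb, the gene of the catalytic subunit IKK-beta, differed by -0.13 (-0.30 to 0.03) and Tbk1, the kinase that activates IRF3, by -0.11 (-0.25 to 0.03) in SCR medium, with 95% intervals in parentheses.

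The inhibitors of NF-kB held the largest rise of the list. Nfkbib encodes IkB-beta, a cytoplasmic inhibitor, and lies at chr7:28758251-28766644. Its signal was 11.15, 11.10 and 11.29 in KO medium, 11.29, 11.06 and 11.14 in SCR medium with CSH, 11.26, 11.01 and 11.07 in SCR medium and 10.06, 10.37 and 9.87 in normal medium. Each conditioned group was above every normal array, and normal replicate 3, at 10.37, was the highest of those. The log2 change was 1.01 in SCR medium (SE 0.12, adjusted p = 2.11e-05), 2.02-fold, beside 1.08 in KO medium and 1.06 with CSH. Nfkbia, which encodes the main inhibitor IkB-alpha and is itself switched on by NF-kB, read 11.69, 11.65 and 11.64 in KO medium, 11.52, 11.67 and 11.57 in SCR medium with CSH, 11.46, 11.55 and 11.52 in SCR medium and 11.20, 11.50 and 11.27 in normal medium. SCR replicate 1, at 11.46, fell below normal replicate 3, at 11.50. It changed by 0.34 in KO medium (adjusted p = 0.003) and by 0.26 with CSH (adjusted p = 0.0154), and differed by 0.19 in SCR medium (adjusted p = 0.0746). The SCR value passed without normal replicate 3 (adjusted p = 0.0071), and the CSH call was lost without normal replicate 2 or 4 or CSH replicate 2 (up to 0.0752). Nfkbie, the gene of IkB-epsilon, was at -0.11 in KO medium, -0.08 with CSH and -0.21 in SCR medium. It passed in none of the 3 (adjusted p = 0.0634 in SCR medium, and 0.0434 there without normal replicate 3).

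Nfkbiz and Bcl3, genes of nuclear IkB proteins, rose. Nfkbid, the gene of a further nuclear IkB protein, is not among the 42 and was chosen after its values were seen. It stood at -0.17 in SCR medium and did not pass (adjusted p = 0.089). Nfkbiz encodes IkB-zeta, which helps NF-kB switch on a late group of cytokine genes, and lies at chr16:55811375-55838954. The Nfkbiz arrays read 8.21, 8.09 and 8.31 in KO medium, 7.99, 7.90 and 7.96 in SCR medium with CSH, 8.0, 7.82 and 7.92 in SCR medium and 7.40, 7.27 and 7.25 in normal medium. The KO arrays were above all others, followed by those of SCR medium with and without CSH, which overlapped, and then by those of normal medium. The log2 change was 0.90 in KO medium (SE 0.07, adjusted p = 6.94e-07), 0.64 with CSH (SE 0.07, adjusted p = 1.77e-05) and 0.61 in SCR medium (SE 0.07, adjusted p = 2.67e-05). Bcl3, whose product binds NF-kB dimers of p50 or p52 in the nucleus, read 6.46, 6.32 and 6.37 in KO medium, 6.41, 6.34 and 6.22 in SCR medium with CSH, 6.32, 6.26 and 6.35 in SCR medium and 5.75, 5.97 and 5.86 in normal medium. Here the 3 conditioned groups overlapped one another and all were above normal medium. Its change was 0.52 in KO medium, 0.46 with CSH and 0.45 in SCR medium (adjusted p = 2.76e-04 in SCR medium).

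All 4 listed genes of NF-kB subunits changed in each conditioned medium, 3 up and 1 down. Of all genes 35.2% were called in SCR medium, 39.1% in KO medium and 35.8% with CSH. Nfkb1, a further subunit gene, was not on the list. Rela, the gene of p65, averaged 10.28 ± 0.06 in KO medium, 10.19 ± 0.10 with CSH, 10.14 ± 0.16 in SCR medium and 9.77 ± 0.06 in normal medium (SD, n = 3 each). That is a change of 0.51 in KO medium, 0.42 with CSH and 0.37 in SCR medium, with adjusted p = 0.00344 in SCR medium. Nfkb2, which encodes p100 and p52 of the non-canonical pathway, rose by 0.40 in KO medium, 0.35 with CSH and 0.29 in SCR medium (adjusted p = 0.007 in SCR medium). Relb, the partner of p52, rose by 0.29 in KO medium, 0.27 with CSH and 0.18 in SCR medium. Its SCR call (adjusted p = 0.0345) failed when SCR replicate 1 or 4 or normal replicate 2 or 4 was dropped (up to 0.151). Rel, which encodes c-Rel, moved the other way and read 11.60, 11.73 and 11.67 in KO medium, 11.57, 11.78 and 11.72 in SCR medium with CSH, 11.69, 11.62 and 11.73 in SCR medium and 12.08, 11.94 and 11.96 in normal medium. The normal arrays were the highest and did not overlap with any other group. Its change was -0.33 in KO medium (SE 0.07, adjusted p = 0.00197), -0.30 with CSH (SE 0.07, adjusted p = 0.00388) and -0.31 in SCR medium (SE 0.07, adjusted p = 0.00311).

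Among the genes of ubiquitin editing and of the response to tumour necrosis factor, Cyld fell and Tnfaip3, Tnip1 and Tnfaip2 did not pass. CYLD removes the ubiquitin chains on which TAK1 and IKK assemble. Cyld read 8.82, 8.77 and 8.86 in KO medium, 8.65, 8.67 and 8.79 in SCR medium with CSH, 8.92, 8.70 and 8.87 in SCR medium and 9.28, 9.24 and 9.03 in normal medium. Normal replicate 4, at 9.03, was the lowest of its group and was above all conditioned arrays. The change was -0.37 in KO medium (SE 0.08, adjusted p = 0.00233), -0.48 with CSH (SE 0.08, adjusted p = 4.14e-04) and -0.35 in SCR medium (SE 0.08, adjusted p = 0.00352). Tnfaip3, which encodes the ubiquitin-editing inhibitor A20, differed by -0.09 in SCR medium (95% interval -0.40 to 0.22), with KO arrays from 7.68 to 8.34. Tnip1, the gene of its partner ABIN-1, differed by -0.05 (-0.19 to 0.08), and Tnfaip2, a gene induced by tumour necrosis factor, by -0.05 (-0.23 to 0.14).

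Irf5 was the IRF gene of the list that fell, and Irf3 did not pass. Irf5, whose product drives inflammatory cytokines downstream of MyD88, read 9.63, 9.77 and 9.69 in KO medium, 9.75, 9.92 and 9.56 in SCR medium with CSH, 9.81, 9.61 and 9.79 in SCR medium and 10.19, 10.20 and 10.08 in normal medium. All conditioned arrays were below 10.08, the lowest normal array. The change was -0.46 in KO medium (SE 0.09, adjusted p = 0.00108), -0.41 with CSH (SE 0.09, adjusted p = 0.0028) and -0.42 in SCR medium (SE 0.09, adjusted p = 0.00248). Irf3, the interferon factor that TBK1 activates, differed by -0.04 in SCR medium (95% interval -0.16 to 0.09) and by -0.01 in KO medium (-0.14 to 0.11).

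**Figure D2:**
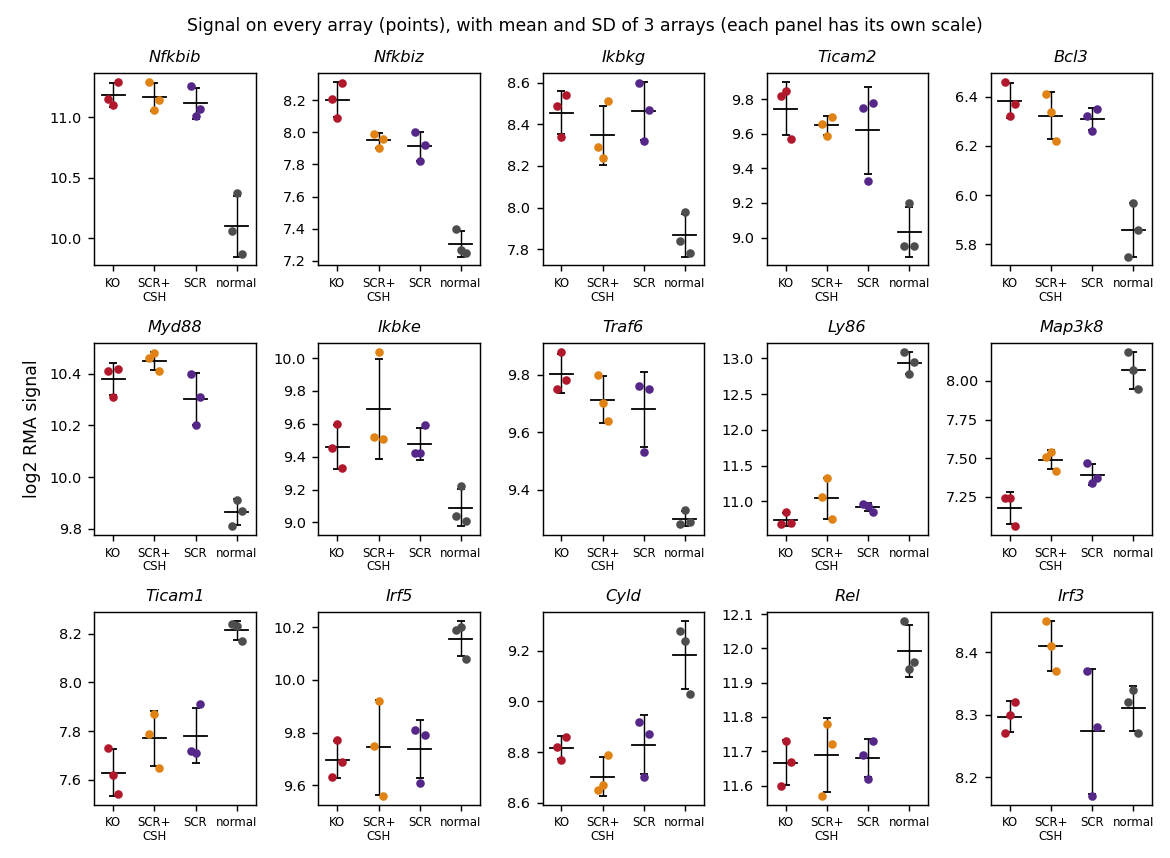
Log2 RMA signal (y axis, own scale per panel) of 15 genes on all 12 arrays, with KO medium, SCR medium with CSH, SCR medium and normal medium from left to right. Points are arrays and bars are mean and SD of 3 arrays; Ly86 is near 13 only in normal medium, and the KO arrays of Nfkbiz (8.09 to 8.31) lie above the SCR arrays (7.82 to 8.0).

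Sequences upstream of the genes were read from RefSeq for GRCm38.p6 to show which members carry a kB-like motif. The windows run from 250 bases before to 50 bases after each start site, and 29 of the 36 measured members had at least 1. The motif GGGNNNTTCC was searched on both strands, so GGAANNNCCC on the printed strand also counts, and a palindromic site can match both ways. Of the 29, 10 had at least 1 match (34.5%), beside 6.31% of all 27025 genes with such windows. Each match was a description of letters, not of a bound site, and factor binding was not measured. The windows of the 5 members with matches that passed in KO against normal medium are shown first, 5′ to 3′ on the gene's strand, with the match in capitals.
Nfkbia, chr12:55492657-55492686, - strand: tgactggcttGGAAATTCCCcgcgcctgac
Nfkb2, chr19:46304689-46304718, + strand: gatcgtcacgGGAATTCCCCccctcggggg
Nfkb2, chr19:46304716-46304745, + strand: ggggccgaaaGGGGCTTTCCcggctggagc
Nfkb2, chr19:46305449-46305478, + strand: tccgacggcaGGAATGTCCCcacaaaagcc
Nfkb2, chr19:46305695-46305724, + strand: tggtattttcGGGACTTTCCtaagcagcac
Rel, chr11:23771041-23771070, - strand: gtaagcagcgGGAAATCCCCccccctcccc
Cyld, chr8:88696863-88696892, + strand: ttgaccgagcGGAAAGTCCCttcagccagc
Tirap, chr9:35199884-35199913, - strand: gccggggcgcGGGCACTTCCcggacgagtc

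Members with a match included genes that rose (Nfkb2, Tirap), genes that fell (Rel, Cyld) and genes that did not pass in SCR medium. Of the members with a match, Map3k7, Nfkbie, Tnfaip3 and Tnip1 did not differ by test from normal medium in any conditioned medium. Map3k7 and Nfkbie are not shown. The windows of Tnfaip3 and Tnip1, the A20 and ABIN-1 genes, were as follows, again with the match in capitals and 1 window shown per gene.
Tnfaip3, chr10:19015403-19015432, - strand: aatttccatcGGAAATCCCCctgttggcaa
Tnip1, chr11:54962979-54963008, - strand: ctccatcatgGGGGAATTCCcctcctgcct
The genes with the largest rise and the largest fall had no match in their windows, which says only that these letters are absent there. Their 250 bases before the start site are shown in lower case without a marked part.
Nfkbib, chr7:28766645-28766894, - strand: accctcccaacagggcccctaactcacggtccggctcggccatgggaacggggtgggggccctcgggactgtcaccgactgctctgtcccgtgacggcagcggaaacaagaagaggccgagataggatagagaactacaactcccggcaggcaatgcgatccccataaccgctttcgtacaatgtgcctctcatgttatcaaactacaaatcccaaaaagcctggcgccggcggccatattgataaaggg
Ly86, chr13:37345095-37345344, + strand: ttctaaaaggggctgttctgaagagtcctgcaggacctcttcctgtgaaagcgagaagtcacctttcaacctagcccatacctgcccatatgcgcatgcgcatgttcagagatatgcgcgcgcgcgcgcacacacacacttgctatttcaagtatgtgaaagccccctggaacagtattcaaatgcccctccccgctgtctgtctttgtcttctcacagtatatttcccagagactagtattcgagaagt

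Between KO and SCR medium, conditioned by JMJD6-KO and by SCR cells, 0 of the 36 genes passed the limma test, beside 0.27% of all genes. Any other difference between those conditioning cells cannot be told apart from that of JMJD6. At an unadjusted p below 0.05 there were 3 members, Nfkbiz, Map3k8 and Traf1, and 5.95% of all genes. Differences ran from -0.21 to 0.29, and the widest bounds of the 95% intervals, which are not adjusted for the number of genes, were -0.44 (Ly86) and 0.44 (Nfkbiz). A 1.5-fold difference, 0.58 on the log2 scale, thus lay outside the interval of each measured member.

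Nfkbiz had the smallest p of the members in that comparison. The KO arrays of 8.21, 8.09 and 8.31 were all above the SCR arrays of 8.0, 7.82 and 7.92. The difference was 0.29 (SE 0.07, 95% interval 0.14 to 0.44, adjusted p = 0.21). With array weights it was 0.26 and passed (adjusted p = 0.0282). There SCR replicate 4 took a weight of 6.14 and SCR replicate 3 one of 0.39, the lowest of all arrays. Map3k8, which fell against normal medium, was lower in KO than in SCR medium by array order, at 7.24, 7.24 and 7.06 in KO medium against 7.47, 7.34 and 7.37 in SCR medium. Its difference of -0.21 (95% interval -0.37 to -0.05) had adjusted p = 0.594. In all, arrays of KO and SCR medium did not overlap for 5 of 36 members (Nfkbiz, Nfkbia, Irak3 and Relb higher, Map3k8 lower), beside 9.37% of all genes.

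Adding CSH to SCR medium changed 0 of the 36 by limma, as it changed 0% of all genes. Unadjusted, 2 members (Irf3 and Myd88) and 6.24% of all genes had a p below 0.05. Irf3 read 8.45, 8.41 and 8.37 with CSH, against 8.37, 8.17 and 8.28 in SCR medium alone. The highest SCR array and the lowest CSH array met, at 8.37. The difference was 0.14 (SE 0.06, 95% interval 0.01 to 0.26, adjusted p = 0.781). Myd88 differed by 0.15 (95% interval 0.01 to 0.29, adjusted p = 0.785) and its arrays did not overlap, as for 2 of 36 members in all (Relb is the other) and 8.59% of all genes. Over the 36 members the differences ran from -0.13 (Cyld) to 0.21 (Ikbke), and the widest interval bounds were -0.36 and 0.49. The Ikbke difference came with the high array of CSH replicate 2, at 10.04, beside 9.52 and 9.51 on the other CSH arrays.

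KO medium set against SCR medium with CSH also gave 0 calls among the 36, beside 1.9% of all genes, and 5 members at an unadjusted p below 0.05, beside 15.7%. Map3k8 came closest. Its arrays of 7.24, 7.24 and 7.06 in KO medium all lay below those of 7.51, 7.54 and 7.42 with CSH. The difference was -0.31 (SE 0.07, 95% interval -0.47 to -0.15, adjusted p = 0.0563), and it passed without normal replicate 2 (adjusted p = 0.0489) or 4 (adjusted p = 0.0492), although those arrays are in neither group. Nfkbiz was next, at 0.25 (adjusted p = 0.103). Arrays did not overlap for 5 of 36 members (Nfkbiz and Traf1 higher, Map3k8, Tnip1 and Irf3 lower), beside 21.8% of all genes. This comparison joins 2 differences, the source of the medium and CSH.

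**Figure D3:**
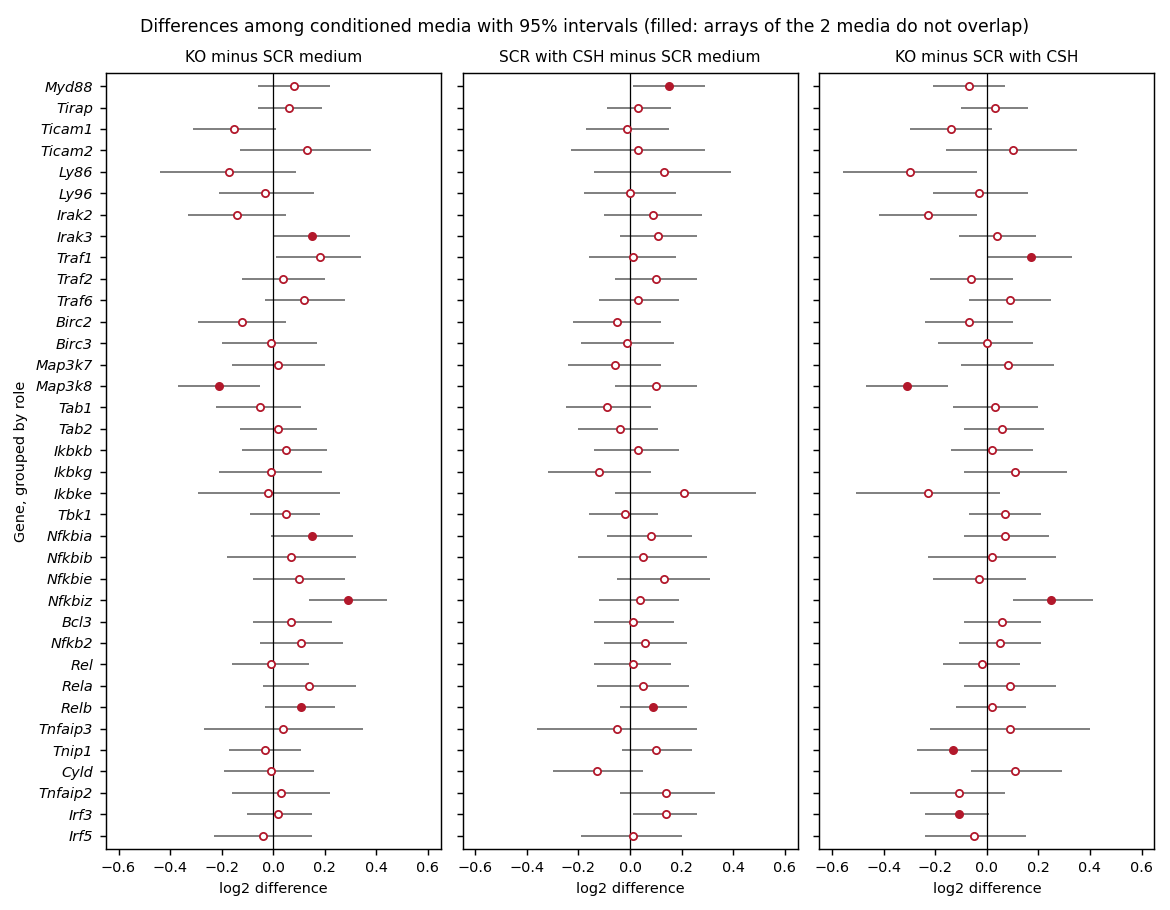
Log2 differences (x axis) of the 36 genes between KO and SCR medium, between SCR medium with and without CSH, and between KO medium and SCR medium with CSH. Points are limma estimates, lines are 95% intervals, and filled points mark genes whose 3 arrays of each medium do not overlap; none of the 36 passed in any panel, and Nfkbiz (0.29) and Map3k8 (-0.31) are farthest from 0 in the first and last panels.

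Other genes of the pathway were taken from further lists. Of 43 tested components that are not among the 42, 9 were higher and 11 lower in SCR medium than in normal medium (background 19.3% and 15.8%), with a median of -0.04. Sqstm1, the ubiquitin-binding scaffold p62, rose by 1.68 and Commd1, which promotes the removal of RELA, by 0.90. Rnf11, a partner of A20, rose by 0.75. Tnip3, the gene of a further A20-binding inhibitor, fell by 2.31 on the log2 scale and Malt1, a protease of antigen receptor signalling to NF-kB, by 1.01. Between KO and SCR medium 0 of the 43 passed by limma (background 0.27%), and 5 had an unadjusted p below 0.05 (background 5.95%). The smallest p there were those of Zc3h12a, the RNase regnase-1 (0.35, adjusted p = 0.106), the TRAF6-binding adaptor Tifa (-0.21, adjusted p = 0.212) and the IRAK inhibitor Tollip (0.33, adjusted p = 0.253).

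Receptors upstream moved in both directions in SCR medium: of 19 tested, 6 were higher and 9 lower (background 19.3% and 15.8%), with a median of -0.04. Tlr4, the lipopolysaccharide receptor, rose by 1.42, while Tlr9, which senses DNA in endosomes, changed by -1.54, Tlr1 by -0.94, the inhibitory receptor gene Sigirr by -0.59 and Cd180, as above, by -1.75. Cd180 was the receptor, 1 of 19, that also passed between KO and SCR medium (background 0.27%), at -0.61 (adjusted p = 0.0323). Its partner gene Ly86 differed there by -0.17 (adjusted p = 0.993). Next by p among the receptors in that comparison were Cd14 (0.47, adjusted p = 0.12) and Tlr4 (0.43, adjusted p = 0.168). Both were higher in KO medium and did not pass. In all, 3 of the 19 had an unadjusted p below 0.05, beside 5.95% of all genes.

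Known targets of NF-kB in macrophages had a higher median than the signalling genes. Of 31 tested, 16 rose and 5 fell in SCR medium against normal medium (background 19.3% and 15.8%), with a median of 0.42 beside 0.02 for all genes. Cxcl2, a neutrophil chemokine gene, rose by 2.81, Il1a, an interleukin-1 gene, by 2.06 and Ehd1, whose product recycles membrane proteins, by 0.91. The survival gene Bcl2a1a was at 1.31, with some doubt because it has near-identical copies. Gadd45b, a stress response gene, fell by 1.94 on the log2 scale. In KO medium against SCR medium 2 of the 31 rose (0.27% of all genes changed), Cxcl2 (1.28, adjusted p = 0.0247) and Il23a (0.73, adjusted p = 0.0201), with a median of 0.19 beside 0.04 for the 36 signalling genes and 0.00 for all genes. Ccl2, a monocyte chemokine gene, was at 0.71 and did not pass (adjusted p = 0.0813). At an unadjusted p below 0.05 in that comparison there were 13 of the 31, most of them higher, beside 5.95% of all genes. No test of the difference between these lists was made, and they were chosen with earlier results of these data known. The 36 signalling genes exceeded the median on all 12 arrays, and the target genes did not all do so.

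**Figure D4:**
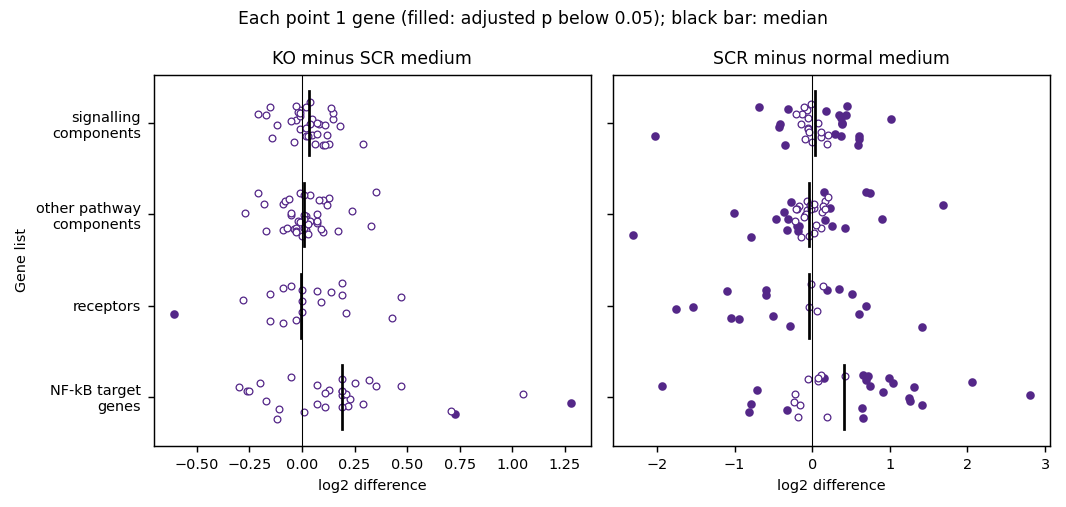
Log2 differences (x axis) between KO and SCR medium and between SCR and normal medium, with 1 point per gene, for the signalling components, other pathway components, receptors and NF-kB target genes (rows). Filled points have an adjusted p below 0.05 and black bars are list medians; those of the target genes are 0.19 and 0.42, those of the signalling components 0.04 and 0.03.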

How the data were processed

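RNA from 12 RAW264.7 samples was hybridised to 1 Affymetrix array each. The deposited values are log2 signals per probe set. The submitters' processing notes name RMA, Affymetrix Expression Console and mm10; versions and filters were not given in the sources used here. RMA sets arrays on a common scale, which hides changes of total RNA and compresses changes of dim genes, and the number of arrays limits the precision.

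Of 65528 probe sets, 31018 had 1 gene symbol after updating through the RefSeq table of GRCm38.p6, 1478 had several and were not named, and 33032 had no listed gene here. The probe set with the highest mean stood for each gene. Group means were compared with limma 3.58.1 in R 4.3.3 (lmFit over all 12 arrays with group as the only term, eBayes with a trend on intensity and 8 residual degrees of freedom), with Benjamini-Hochberg adjustment over 18119 genes. The code was tested on simulated data. Motifs and figures used Python 3.11.15 and matplotlib 3.10.9.

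The members and lists were chosen with earlier results of these data known. Array values are given for the member with the smallest p in each comparison among the conditioned media and for up to 8 rises and 8 falls in SCR medium, largest first; Nfkbia was added after its values were seen, as were the motif windows. From each further list up to 5 genes with the smallest p in SCR and up to 3 in KO medium are named. Alternatives were other filters, scalings, variance models, array weights, probe-set averaging, a block for the replicate number, leaving out each array, 6 arrays alone and other thresholds.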

Additional observations from a re-analysis of the deposited data

How the results depend on the processing

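The counts of members changed against normal medium stayed within 1.5 times of those reported under other filters, scalings, variance models, array weights and probe-set averaging (17 to 21 in SCR medium, 19 to 22 in KO medium, 20 to 23 with CSH), and with 1 array left out (17 to 21, 19 to 22 and 19 to 23). With a fold of at least 1.5 added, 6 members were called in each of the 3. The test across 4 media called 18 to 21 with 1 array left out. Between KO and SCR medium array weights gave 1 call, Nfkbiz, and leaving out single arrays gave 0. Between KO medium and SCR medium with CSH, quantile normalization, array weights, the replicate block and an adjusted p below 0.1 each gave 1 call, Map3k8, and single arrays left out gave 0 to 1. CSH against SCR medium gave 0 under each alternative run.

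Of 391 values of 17 gene results under the alternatives, 371 kept their direction and call, 13 lost the call, mostly to the added fold, 7 gained it and 0 reversed. Ikbke also lost its SCR and KO calls without the filter on low values (adjusted p = 0.0563 and 0.0626). For Relb, the SCR call was lost without that filter (adjusted p = 0.0565), after median centring (adjusted p = 0.104), with the block (adjusted p = 0.0716) and on 6 arrays alone (adjusted p = 0.0923). The CSH calls of Traf2 and Tab1 were lost without the filter (adjusted p = 0.0511 and 0.0554), after median centring (0.0795 and 0.0728) and on 6 arrays (0.0639 and 0.0752), that of Irak2 after median centring (0.0596), and that of Nfkbia after quantile normalization (0.0788) and on 6 arrays (0.0517). In KO medium Tab1 passed after quantile normalization (0.0237) and with array weights (0.0339). Traf1 passed there after quantile normalization (0.0445) and without KO replicate 2 (0.0393), and Traf2 without normal replicate 3 (0.0254). With CSH, quantile normalization let Tbk1 pass, at -0.15 (0.024). In SCR medium array weights let Irak2 (0.0144) and Nfkbia (0.0226) pass, and quantile normalization Nfkbie (0.0498). The causes were not tested.

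Samples with the same replicate number did not deviate together throughout: 5 of 12 same-numbered pairs had a correlation over 0.1 (range -0.07 to 0.29), and 5 of 12 arrays correlated best with an array of their own number, so the numbers were not taken as pairs. With the replicate block the counts were 18, 22 and 22 against normal medium in SCR medium, KO medium and SCR medium with CSH, and 0, 0 and 1 among the conditioned media. The CSH call of Traf2 was lost with it (adjusted p = 0.0596) and the KO values of Tab1 (adjusted p = 0.0346) and Traf1 (adjusted p = 0.0351) passed.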
